A study of Homo sapiens with 9 samples.

Results

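Cytosolic ribosomal proteins are the protein part of the ribosome that translates mRNA outside mitochondria. Their genes were taken by symbol: RPL or RPS followed by a number and at most an A or X, together with RPLP0, RPLP1, RPLP2 and RPSA, with pseudogene symbols left out. Of the 59648 gene symbols in the files, 77 matched, 46 for proteins of the large subunit and 31 for proteins of the small subunit. A low-count filter kept 14741 genes for testing, among them 75 of these 77 genes, each with at least 80 counts in every library. RPS18, which was not tested, is described with the genes that were not called.

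RNA was sequenced from Kasumi-1, an established line of acute myeloid leukaemia cells in which the t(8;21) translocation makes the fusion protein AML1-ETO (AE, also RUNX1-RUNX1T1). All cells received an shRNA by lentivirus for 48 h, were selected with 1 µg/mL puromycin for a further 48 h, and were sampled on day 4. The control group held 3 libraries with a control shRNA. The AE knockdown group held 3 libraries labelled AE shRNA 1, 2 and 3, called replicates below, although the labels do not say whether these are different shRNAs or repeats of the same one, and the LYL1 knockdown group held 3 libraries with LYL1 shRNAs 538, 540 and 542. LYL1 is a blood transcription factor that works with the fusion. The libraries come from 1 cell line, every group carried a lentivirus and was grown in puromycin, and the labels do not say whether libraries of a group are separate cultures, so that p-values reflect no more than the spread among these 9 samples.

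Each ribosome holds a copy of nearly every ribosomal protein bound to ribosomal RNA, and cells make the proteins in matched amounts. Their mRNAs are short and abundant and begin with a C followed by a run of pyrimidines, the terminal oligopyrimidine (TOP) tract, through which mTOR signalling and the protein LARP1 control their translation and stability. In blood, loss of a copy of genes such as RPS19 causes Diamond-Blackfan anaemia, and loss of RPS14 contributes to the 5q deletion form of myelodysplasia.

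The start-site sequences of the largest rises and smallest changes with AE knockdown are given first, to show what these mRNAs begin with. Each run is read 5′ to 3′ along the coding strand, from 15 bases before the RefSeq start site (build GRCh38.p14). Capitals mark the TOP tract as searched here, a C within 5 bases of the start followed by C or T, at least 5 bases long in all.
RPS27 (chr1:153990747-153990776, plus strand): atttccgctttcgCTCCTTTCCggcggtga
RPS14 (chr5:150449725-150449754, minus strand): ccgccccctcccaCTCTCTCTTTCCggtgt
RPS21 (chr20:62387088-62387117, plus strand): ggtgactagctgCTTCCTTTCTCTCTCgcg
RPL26 (chr17:8383179-8383208, minus strand): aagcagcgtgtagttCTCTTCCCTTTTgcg
RPS26 (chr12:56041903-56041932, plus strand): gagacacataacctcgattttcttccgcca
RPL17 (chr18:49492451-49492480, minus strand): cctctttccctaagcagcctgaggtgagtg

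The first 3 genes had tracts of 9, 12 and 15 bases and were among the largest rises. RPL26, RPS26 and RPL17 had the smallest changes, though RPL17 held few reads. Only RPL26 of these held a tract by this search, of 12 bases. RPS26 and RPL17 had no tract starting within 5 bases of the listed start. A pyrimidine run that began with T just after the listed RPS26 start was not counted, nor were runs farther from the start in these windows.

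Library totals lay between 20103275 and 28039518 counts. Levels are CPM, counts relative to the library total, scaled with TMM factors, which were 0.914 in AE replicate 3 and 0.997 to 1.04 in the other libraries. RUNX1T1, whose counts include the fusion, lay at 216, 223 and 212 CPM in control libraries and reached 114, 136 and 87.7 CPM with AE knockdown. LYL1 lay at 172, 172 and 143 CPM in control libraries and reached 80.4, 98.4 and 43.9 CPM with shRNAs 538, 540 and 542. The 8 myeloblast markers summed to between 13204 and 36343 CPM in every library, and the erythroid and fibroblast lists to at most 0.192 and 0.0998 CPM. The 3 T-cell markers summed to at most 5.95 CPM, the B-cell list to 20.5, the megakaryocyte list to 3.22 and the epithelial list to 1.30.

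The ribosomal protein genes took a larger share of the RNA with AE knockdown. In the controls they held 5.65%, 5.74% and 5.62% of all counts. With AE knockdown they held 8.29%, 8.42% and 12.5%, all above every control. With LYL1 knockdown they held 6.29% and 6.24% with shRNAs 538 and 540 and 4.81% with shRNA 542, so that this group lay on either side of the controls. The group means were 5.67 ± 0.0613%, 9.73 ± 2.38% and 5.78 ± 0.838% (SD, n = 3). The large subunit genes went from between 3.42% and 3.55% in the controls to 5.17%, 5.09% and 7.58% with AE knockdown, and the small subunit genes from between 2.15% and 2.20% to 3.13%, 3.33% and 4.89%. A share in bulk RNA cannot tell fewer cells with a given level from less RNA per cell.

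Within a library the genes moved together. The median difference from the control mean over the 75 tested genes, on the log2(CPM + 0.5) scale, was 0.59, 0.57 and 1.30 in AE replicates 1, 2 and 3. In the same libraries 69, 69 and 73 of the 75 genes lay above all controls, and 1, 2 and 1 lay below all of them. Such counts for single libraries were not made over all genes tested, so no share stands beside them. The median over all genes tested was between -0.01 and 0.02 in every library. AE replicate 3 was the highest AE library for 73 of the 75 genes. With LYL1 knockdown the medians were 0.10, 0.13 and -0.24, and shRNA 542 was the lowest LYL1 library for 69 genes.

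**Figure D1:**
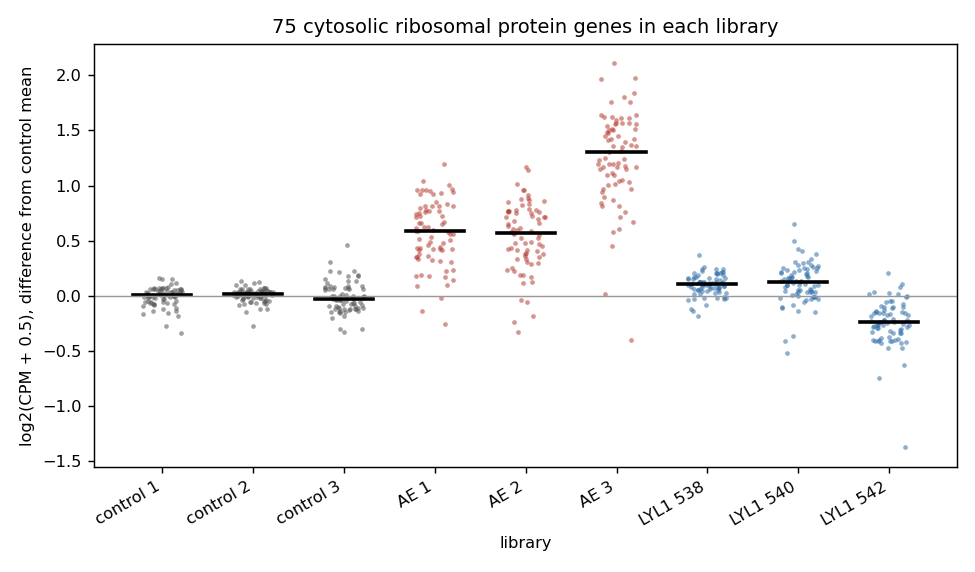
Difference of each of the 75 tested ribosomal protein genes from its control mean, log2(CPM + 0.5), in the 9 libraries; points are genes and black bars are medians. The medians of the AE libraries are 0.59, 0.57 and 1.30, and that of LYL1 shRNA 542 is -0.24.

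The 2 libraries that stood apart also differed in other measures. AE replicate 3 had the lowest RUNX1T1 level and the largest share of mitochondrial ribosomal RNA, 1.21% of counts against 0.603% and 0.521% in the other AE libraries and 0.483% to 0.549% in the controls. LYL1 shRNA 542 had the lowest LYL1 level, the smallest total count and a mitochondrial ribosomal RNA share of 0.791%, against 0.507% and 0.609% with shRNAs 538 and 540. The part of these differences in the ribosomal protein levels was not tested.

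AE knockdown against control asks how less of the fusion changes expression, and here the ribosomal protein genes rose. Of the 75 genes tested, edgeR called 56 higher and 0 lower at an adjusted p below 0.05, where 11.4% of all genes tested were called higher and 10.4% lower. The median log2 fold change was 0.84 (1.79-fold), with quartiles of 0.62 and 1.06 and a range of -0.06 to 1.52, against a median of 0.05 over all genes tested. All 3 AE libraries lay above all 3 controls for 66 of the 75 genes, where this held for 23.1% of all genes tested. Of the large subunit genes 35 of 46 rose (median 0.80), and of the small subunit genes 21 of 29 (median 0.98). Without AE replicate 3 the calls were 42 and the median 0.56, where 7.93% of all genes were called higher. Leaving out control 1, 2 or 3 left 25, 23 and 20 calls, where 3.24%, 2.8% and 2.92% of all genes were called higher, while the median stayed between 0.84 and 0.87.

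**Figure D2:**
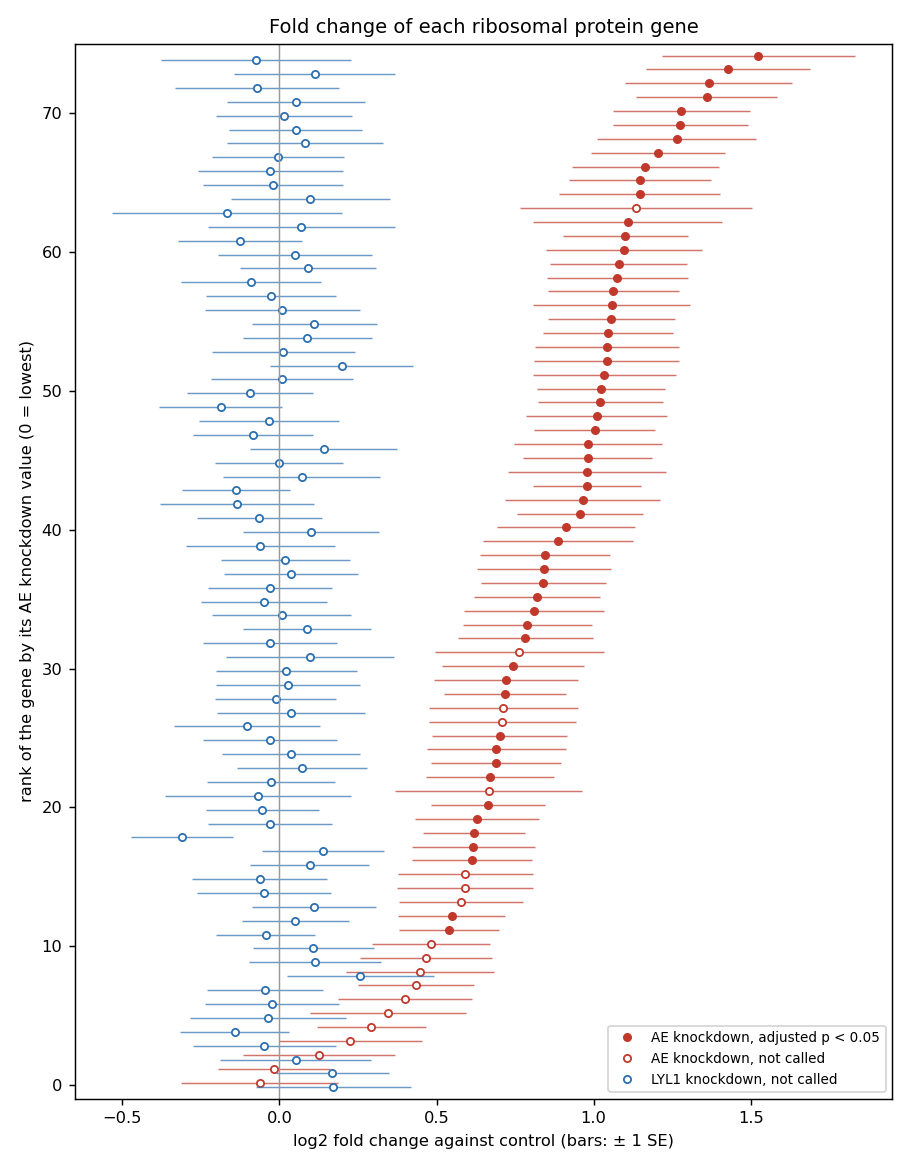
Log2 fold change against control of the 75 tested genes, ordered by their AE value, with AE knockdown in red and LYL1 knockdown in blue; bars are 1 SE and filled points have an adjusted p below 0.05. The AE values reach from -0.06 (RPL17) to 1.52 (RPS27), while the LYL1 values lie between -0.31 and 0.26 with none filled.

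The largest rises included small subunit genes. RPS27, a zinc-finger protein of the small subunit, lay at 275, 269 and 243 CPM in control libraries and reached 600, 530 and 1134 CPM with AE knockdown. RPS14, which sits at the platform of the small subunit and is the gene of the 5q deletion, lay at 726, 725 and 633 CPM and at 1354, 1536 and 2715 CPM. The AE libraries lay above every control for both genes, and replicate 3 was the highest. The log2 fold changes were 1.52 (SE 0.31, edgeR adjusted p = 0.00932) for RPS27 and 1.43 (SE 0.26, edgeR adjusted p = 0.00628) for RPS14. RPS21, also of the small subunit, went from 205 ± 13.4 to 525 ± 168 CPM (log2 change 1.36). RPL34 and RPL31 followed, each with a log2 fold change of 1.28. These 5 genes were called in each of the 9 fits that left out 1 library.

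The stalk of the large subunit recruits translation factors. RPLP0 is its anchor, RPLP1 and RPLP2 are its flexible acidic arms, and RPL12 lies at its base. All 4 genes were called higher, where 74.7% of the 75 ribosomal protein genes were. Their median log2 fold change was 0.76, against 0.84 for the 75 genes. RPLP0 lay at 1507, 1547 and 1643 CPM in control libraries and reached 2336, 2472 and 3485 CPM with AE knockdown. The log2 fold changes were 0.82 for RPLP0, 0.69 for RPLP1, 0.62 for RPLP2 and 0.98 for RPL12 (edgeR adjusted p = 0.0178, 0.0366, 0.0227 and 0.0208). The AE and control libraries were separate for each of the 4. Without any 1 control none of the 4 was called, with adjusted p up to 0.0756, 0.119, 0.103 and 0.0813. RPLP1 was also lost without AE replicate 3 (adjusted p = 0.0635) and without LYL1 shRNA 538 or 540.

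RPL5 and RPL11 bind 5S ribosomal RNA and, outside the ribosome, the p53 regulator MDM2. RPL5 lay at 1887, 1926 and 1946 CPM in control libraries and reached 2588, 2371 and 4540 CPM with AE knockdown (log2 change 0.72, SE 0.23, edgeR adjusted p = 0.0456). RPL11 lay at 1400, 1470 and 1581 CPM and at 1688, 1616 and 2848 CPM (0.47, SE 0.21, edgeR adjusted p = 0.131). For both genes AE replicate 3 stood well above the other 2 AE libraries, and no AE library fell within the controls. The call of RPL5 was lost in 14 of the 26 other settings, among them the fit without AE replicate 3 (0.36, adjusted p = 0.0692). Without that library the value of RPL11 was 0.14 (adjusted p = 0.43).

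RPL3 lies near the peptidyl transferase centre, and RPL10 is added late and is needed for the subunits to join. RPL10 rose from 384, 382 and 343 CPM to 705, 567 and 984 CPM (log2 change 1.02, SE 0.20, edgeR adjusted p = 0.00842). RPL3 lay at 1457, 1489 and 1340 CPM and at 2107, 1673 and 3227 CPM (0.71, SE 0.23, edgeR adjusted p = 0.0511), so it missed the threshold although its groups did not overlap.

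Proteins along the tunnel by which the new peptide leaves, and around its mouth, were mixed. Of 9 such genes, 5 rose: RPL31, RPL19 (1.06), RPL39 (1.04), RPL4 (0.84) and RPL35 (0.66), with edgeR adjusted p between 0.00505 and 0.026. RPL19 went from 1313 ± 62.7 to 2744 ± 872 CPM, and RPL39, which lies deep in the tunnel, from 198 ± 14.2 to 408 ± 154 CPM. RPL23A, a docking site for factors at the tunnel mouth, had a log2 fold change of 0.40 (edgeR adjusted p = 0.196). RPL22, RPL26 and RPL17 had values of 0.29, 0.13 and -0.06, and none was called. RPL17 was among the tested genes with the fewest reads in the controls, as described below. Without control replicate 1, 2 or 3 the calls among the 9 fell to between 2 and 3. RPL4 and RPL35 were lost without any 1 control (adjusted p up to 0.0731 and 0.114), and RPL39 without control replicate 2 or 3 (up to 0.06).

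Proteins along the mRNA path of the small subunit were mixed as well. RPS28, at the exit of the channel, rose from 217, 232 and 187 CPM to 362, 360 and 571 CPM (log2 change 1.02, SE 0.20, edgeR adjusted p = 0.00776). RPSA, also known as the laminin receptor, went from 693 ± 2.95 to 1245 ± 290 CPM (0.84, edgeR adjusted p = 0.0178), a call lost without any 1 control (up to 0.0713). RPS3 and RPS2, at the entry of the channel, had log2 fold changes of 0.71 and 0.43 (edgeR adjusted p = 0.0525 and 0.112). RPS26, beside the exit, showed a log2 fold change of -0.02 (edgeR adjusted p = 0.956). RPS26 was also the gene for which AE replicate 3 lay farthest below the other AE libraries, at 0.686 of their mean, where the ratio was 1.67 for RPL19, the median gene.

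Of the 18 tested genes tied to Diamond-Blackfan anaemia 13 rose and 0 fell, with a median log2 fold change of 0.87. This share of 72.2% stood beside 74.7% of all 75 ribosomal protein genes and 11.4% of all genes tested. RPS19, the gene most often mutated in that disease, lay at 533, 538 and 513 CPM in control libraries and reached 881, 938 and 1302 CPM with AE knockdown. All AE libraries lay above every control, and the log2 change was 0.98 (SE 0.17, edgeR adjusted p = 0.00571). RPS24, RPL5, RPL15, RPL18, RPL27, RPL31, RPL35, RPL35A, RPS7, RPS27, RPS28 and RPS29 were the others called. RPL11, RPS10, RPS15A, RPL26 and RPS26 were not. Without control replicate 1, 2 or 3 between 5 and 6 of the 18 were called, and 9 without AE replicate 3.

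Other genes with known roles rose too. RPS6, the substrate of S6 kinase, went from 839 ± 5.28 to 1658 ± 592 CPM (log2 change 0.98, edgeR adjusted p = 0.0164), a call lost without any 1 control (up to 0.0662). RPS27A, made as a fusion with ubiquitin, went from 586 ± 71.9 to 1298 ± 440 CPM (1.15, edgeR adjusted p = 0.00805). RPL13, a core protein of the large subunit, lay at 518, 529 and 512 CPM in control libraries and reached 1016, 874 and 1455 CPM (1.10, edgeR adjusted p = 0.00622), with no overlap.

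**Figure D3:**
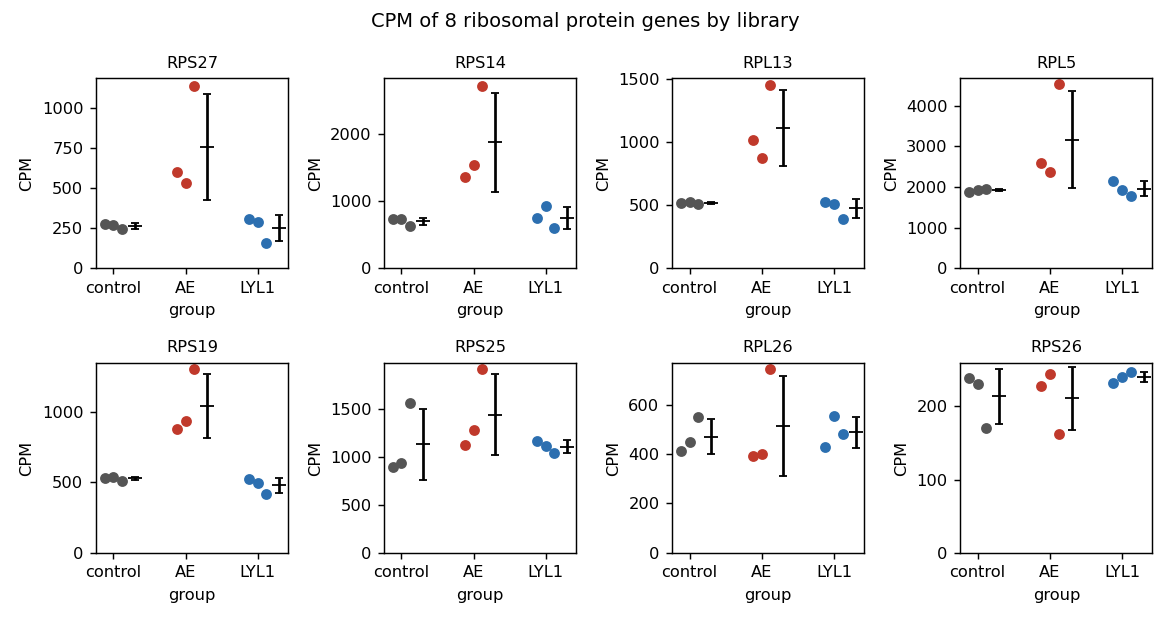
CPM of 8 ribosomal protein genes by library on axes from 0; coloured points are libraries, and the black mark and bar give the group mean and SD (n = 3). RPS27, RPS14, RPL13, RPL5 and RPS19 show no overlap between AE and control libraries, while RPS25, RPL26 and RPS26 overlap.

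The 19 genes not called with AE knockdown fell into a group that did not overlap the controls and a group that did. RPL41, RPS3, RPL3, RPS4X, RPS10, RPL36A, RPL11, RPS3A, RPS2 and RPL23A had all AE libraries above all controls, with log2 fold changes of 0.40 to 1.14. RPL41, the smallest ribosomal protein, lay at 103, 97.0 and 106 CPM in control libraries and reached 169, 189 and 314 CPM with AE knockdown. Its log2 fold change of 1.14 had an SE of 0.37 (edgeR adjusted p = 0.0516). Its LYL1 libraries, which share the estimate of spread, lay at 111, 122 and 39.0 CPM. RPS4X, the X-linked copy of its protein, had a value of 0.59 (edgeR adjusted p = 0.07).

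The 9 genes with overlapping libraries were RPS15A, RPL30, RPL36, RPS25, RPL22, RPL28, RPL26, RPS26 and RPL17. RPS25, which contacts viral internal ribosome entry sites, lay at 902, 941 and 1567 CPM in control libraries and reached 1123, 1284 and 1927 CPM with AE knockdown. Its control replicate 3 was 1.74 times its lowest, the widest control spread among the 75 genes, where RPS4X had the narrowest at 1.01 times. RPL26, a protein of the tunnel mouth, lay at 414, 450 and 550 CPM and at 394, 400 and 747 CPM. Of its AE libraries only replicate 3 lay above the controls, and without it the log2 fold change was -0.26 in place of 0.13 (edgeR adjusted p = 0.268 and 0.737). RPS26 lay at 239, 231 and 170 CPM in control libraries and reached 227, 244 and 161 CPM.

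A few symbols held very few reads. RPS18 had 3 counts in all 9 libraries together, while pseudogene symbols named after it held 1407 counts. How its reads were assigned is not given in the sources used here, so no level is read for it. RPL36A, RPL17 and RPS10 held the fewest reads of the tested genes in the controls, at 3.77, 5.56 and 38.7 CPM, and the read-through symbols that overlap these 3 genes held 0 counts. RPS24, RPS3 and RPL5 held the most, at 2470, 2016 and 1920 CPM. Per kilobase of transcript the control level ran from 5.45 CPM per kb for RPL36A to 4237 for RPS24, with RPLP1 at 3968. Proteins that the ribosome holds in like amounts thus had symbols with very unlike levels, and near-identical copies make the levels of single genes uncertain.

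Pseudogene symbols of ribosomal proteins were higher with AE knockdown as well. They took between 0.130% and 0.164% of counts in the controls and 0.212%, 0.198% and 0.315% with AE knockdown. Of the 150 tested, 48 rose and 0 fell, with a median log2 fold change of 0.77. The share called higher was 32%, where 11.4% of all genes tested were called higher and 10.4% lower. Calls in this list ranged from 9 to 67 when 1 library was left out, with 21 without AE replicate 3 and the fewest without a control. Over all genes, the share called higher in those fits was 2.8% to 15.5%. The share of a gene's family counts that fell on its pseudogene symbols had a median of 1.31% and reached 22.6% for RPS27A. Reads of a gene and its copies cannot be told apart here.

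LYL1 knockdown against control asks the same of LYL1, and no ribosomal protein gene was called. EdgeR called 0 of the 75 genes, and 0 passed an unadjusted p of 0.05. DESeq2 and limma-voom also called 0, which does not show that the levels were alike. Of all genes tested 0.0136% were called. The median log2 fold change was 0.01, and values ran from -0.31 for RPLP2 to 0.26 for RPS3A. RPLP2, an acidic arm of the stalk, lay at 510, 539 and 637 CPM in control libraries and reached 496, 438 and 424 CPM with LYL1 knockdown, with an SE of 0.16 on its value of -0.31. It was the only one of the 75 with all LYL1 libraries below all controls, where 8.17% of all genes tested were, and 0 lay wholly above, where 8.41% of all genes did.

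The spread between LYL1 libraries covers both directions. With shRNAs 538 and 540, 50 and 46 of the 75 genes lay above all controls, while with shRNA 542 only 1 did and 60 lay below all controls. For single LYL1 libraries, too, the share over all genes tested was not taken. RPS27 shows this pattern at 304 and 288 CPM with shRNAs 538 and 540 and 156 CPM with shRNA 542, against 243 to 275 CPM in the controls. RPS3A, of the small subunit, had its LYL1 values at 1147, 1549 and 835 CPM against 946, 973 and 1034 CPM. Next to RPLP2 the lowest log2 fold changes were those of RPS28 (-0.19), RPL41 (-0.17), RPL22 (-0.14), RPS19 (-0.14) and RPS15 (-0.13). The highest after RPS3A were RPL39 (0.20), RPL17 (0.17), RPS26 (0.17), RPS6 (0.14) and RPL14 (0.14). Without shRNA 542 the median was 0.11 and without shRNA 540 it was -0.06, with 0 calls in each fit.

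The 2 knockdowns were compared directly, since both comparisons above use the same controls. AE knockdown lay above LYL1 knockdown for 52 of the 75 genes by edgeR and below for 0, where 10.7% and 9.7% of all genes tested were called. The median log2 difference was 0.84. Among the largest differences were those of RPS27 (1.60), RPS14 (1.32), RPS21 (1.31), RPL41 (1.30) and RPL34 (1.27), each called. RPLP2 differed by 0.93 (SE 0.16, edgeR adjusted p = 0.00553). The smallest were those of RPL17 (-0.23), RPS26 (-0.19), RPL26 (0.07), RPS3A (0.19), RPL28 (0.27) and RPL11 (0.35), none called. Without LYL1 shRNA 542 there were 23 calls and a median of 0.73, where 4.38% of all genes tested were called higher. With both that library and AE replicate 3 left out there were 39 calls and a median of 0.45, where 6.49% were. Leaving out both libraries gave 59 calls and a median of 0.57 against control, where 10.5% of all genes were called higher.

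Other genes of the translation machinery were examined next to the ribosomal proteins, by lists whose counts are read against the shares of all genes given above. Of 9 tested paralogs and other proteins of the ribosome 5 rose. FAU, which encodes a ribosomal protein fused to a ubiquitin-like protein, rose by log2 0.80 (edgeR adjusted p = 0.013), a call lost without control replicate 2 or 3 (up to 0.0646). RPS27L, a paralog of RPS27, rose by 0.91, RPL22L1, a paralog of RPL22, by 0.68, and the scaffold RACK1 by 0.74. Without control replicate 1, 2 or 3, or AE replicate 3, there were 2 to 3 calls in this list. The call of RACK1 was lost without any 1 library except AE replicate 2 (adjusted p up to 0.146), and that of RPL22L1 without any 1 control or AE replicate 3 (up to 0.119).

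Some other mRNAs described as TOP mRNAs, and most of the listed TOP hosts of small nucleolar RNAs, were also called higher. FAU and RACK1 belong to the first of these lists as well. Of 23 other TOP mRNAs 10 rose, 0 fell and 13 were not called (median 0.53), among them the elongation factor subunit EEF1B2 (1.09), the initiation factor subunit EIF3K (0.84) and COX7C, a subunit of cytochrome oxidase (0.80). The elongation factors EEF1A1 and EEF2 had values of 0.53 and 0.22 and were not called (edgeR adjusted p = 0.118 and 0.531). Values over these 23 genes ran from -0.12 to 1.09. Of 11 host genes 9 rose and 0 fell (median 0.85). ZFAS1, the first of these, lay at 49.3, 49.2 and 49.9 CPM in control libraries and reached 116, 99.0 and 194 CPM with AE knockdown (1.46, edgeR adjusted p = 0.00386). SNHG5 (1.17), GAS5 (1.10) and SNHG6 (1.09) followed. The calls were 4 to 5 in each list without any 1 control, and without AE replicate 3 they were 7 and 9.

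Genes that regulate TOP mRNAs and genes of ribosome assembly did not rise with the ribosomal proteins. Of 20 TOP regulators and growth signalling genes 0 rose and 5 fell (median -0.33). RPTOR, the mTOR complex subunit Raptor, lay at 274, 277 and 234 CPM in control libraries and reached 118, 82.5 and 62.1 CPM (log2 change -1.58, edgeR adjusted p = 0.0021). LARP1, which binds the TOP tract, lay at 483, 488 and 471 CPM and at 325, 308 and 224 CPM (-0.75, edgeR adjusted p = 0.00972). Both lay below every control in all AE libraries. LARP4 (-0.58), MLST8 (-0.63) and EIF4E (-0.61) also fell. Without any 1 control only RPTOR and LARP1 were called of the 20 genes, and without AE replicate 3 there were 3 calls lower.

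Of 47 rRNA processing and nucleolar genes 0 rose and 11 fell (median -0.36). NOLC1, a nucleolar chaperone, lay at 472, 465 and 469 CPM in control libraries and reached 249, 224 and 171 CPM with AE knockdown (-1.12, edgeR adjusted p = 0.00236). NCL, UTP3 and BOP1 had log2 fold changes of -1.09, -0.77 and -0.99. NCL was not called once any 1 control was removed (adjusted p up to 0.079), and UTP3 and BOP1 without control replicate 3 (0.0509 and 0.062). Of 19 chaperones and importers of ribosomal proteins 3 fell, KPNB1, TSR1 and RPF2, with 0 called without any 1 control. Of 14 RNA polymerase I genes 1 fell, UBTF (-0.57), also with 0 called without any 1 control. The nucleolar list had 1 to 3 calls without any 1 control, 19 without AE replicate 2 and a median of -0.17 without AE replicate 3.

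**Figure D4:**
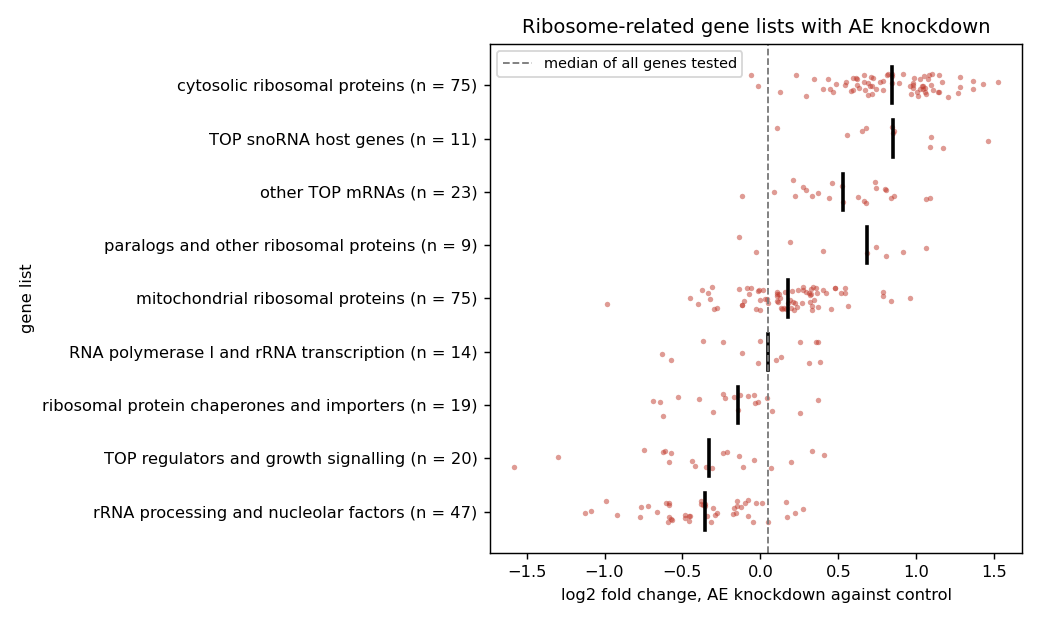
Log2 fold change with AE knockdown of the tested genes of 9 lists; points are genes, black bars are list medians and the dashed line is the median of all genes tested (0.05). The lists of cytosolic ribosomal proteins and TOP genes lie to the right, with medians of 0.84, 0.85 and 0.53, and the nucleolar list to the left at -0.36.

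Ribosomal proteins of mitochondria, which are imported into that organelle, had a median of 0.18. Of 75 tested 6 rose and 1 fell, a share called higher of 8.0%, and 1 was called higher without any 1 control. MRPS33 rose by 0.96 and MRPS34 was the gene that fell (-0.98). Of 11 transcription factors described at ribosomal protein promoters 0 rose and 1 fell, SP1 (-0.36), a call lost without any 1 control (adjusted p up to 0.159). MYC, the best known of them, lay at 679, 645 and 561 CPM in control libraries and reached 678, 542 and 369 CPM (-0.25, edgeR adjusted p = 0.398). Of 9 tested p53 and MDM2 genes 0 rose and 2 fell, CDKN1A (-3.20) and BAX (-0.45). These 2 do not stand for the list, which had 6 positive and 3 negative values and a median of 0.30. The call of CDKN1A was lost without control replicate 2 (adjusted p = 0.0632) and that of BAX without any 1 control (up to 0.129). MDM2 had a value of 0.30 (edgeR adjusted p = 0.135). With LYL1 knockdown 0 genes of any of these lists were called.

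Short transcripts had larger values than long ones with AE knockdown also among other genes. Of genes that are not ribosomal proteins, those with transcripts up to 1000 nt had a median log2 fold change of 0.18 and 14.8% called higher, and those over 4000 nt a median of -0.15 and 5.89% called higher. The 75 ribosomal protein transcripts had a median length of 700 nt (359 to 1864), against 1771 nt over all genes tested. A correction of each library for length and GC content left 44 calls and a median of 0.71. Across the 75 genes the log2 fold change had a Spearman correlation of -0.06 with length, 0.02 with GC content and -0.14 with the control level, values from the same libraries and given as a description.

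TOP tracts were common at the start sites of called and of uncalled genes. Of 62 ribosomal protein genes with a listed start 52 had a tract by the search above at any listed start. Of the 9769 tested genes that are not ribosomal proteins and have a listed start, 27.6% had one, and of all 35116 listed starts counted singly 19.7% did. The 51 tested genes with a tract had a median log2 fold change of 0.84 and 39 were called higher, and the 10 without had a median of 0.90 and 7 called. Among tested genes that are not ribosomal proteins, the 2694 with a tract had a median of 0.04 and 12.6% called higher, and those without a median of 0.00 and 11.0%. The search reads only the listed start, and start sites used in these cells were not measured.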

How the data were processed

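The deposited files hold raw counts, 1 whole number per gene symbol and library. The submitters' processing notes name HISAT2 2.2.0, featureCounts 2.0.1, fastp 0.20.1, DESeq2 1.26.0, SAMtools 1.7 and the build hg19, without saying what each did. The annotation, strand setting and treatment of multiply mapping reads are not given in the sources used here. Here counts were scaled by TMM, filtered with filterByExpr by group, and compared in edgeR 4.0.16 (R 4.3.3) by the robust quasi-likelihood test with 9 libraries in 1 group-means model. Benjamini-Hochberg adjustment ran over all 14741 genes tested, with calls below 0.05. Standard errors are the log2 fold change divided by the square root of F; the prior count was 0.125. The fit was also run on simulated counts, drawn with 1 spread per gene for all 9 libraries. The groups here differ in spread, so that run does not show how often the test errs on these data. Transcript lengths and GC came from GENCODE release 29 and start sites from RefSeq. In 6 files a decimal suffix was removed from 5 gene names.

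The genes and lists were chosen with earlier results of these data known. Genes named are the 6 largest and 6 smallest changes per comparison, all not called with AE knockdown, a list by role, the 3 highest and lowest controls, and up to 4 genes per other list with the smallest adjusted p. RACK1, EEF1A1, EEF2, MYC, MDM2 and EIF4E outside it were chosen after their values were seen, as was RPL22L1, which the rule also gave. Further genes chosen in that way are not reported here by name. Alternatives were other scalings, filters, tools (DESeq2 1.42.0, limma 3.58.1), thresholds, length and GC correction, a replicate block and leaving out libraries. Replicates differed by more than sampling noise, and unequally between groups. Chi-square per degree of freedom was 4.04 to 18 between controls, 90.6 to 207 between AE libraries and 47 to 79.2 between LYL1 libraries. The median coefficient of variation (SD over mean) of the 75 genes was 5.3% in the controls, 31.9% with AE knockdown and 14.5% with LYL1 knockdown. The test shared 1 estimate of spread per gene among these unlike groups. Some genes are not reported here by name, though they are counted in every total.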

Additional observations from a re-analysis of the deposited data

How the results depend on the processing

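With AE knockdown 56 ribosomal protein genes were called higher. An adjusted p below 0.01 left 20, where 2.54% of all genes were called higher. Leaving out 1 library gave 20 to 64, where 2.8% to 15.5% of all genes were called higher. Against LYL1 knockdown 52 were called, 20 in a fit of only the 6 libraries compared, 18 at an adjusted p below 0.01 and 23 to 63 without 1 library. In the same order, 10.7%, 3.28%, 2.52% and 4.38% to 14.3% of all genes were called higher. Apart from the replicate block, the remaining settings gave 44 to 62 and 39 to 59 calls. No setting gave a ribosomal protein gene called lower in either comparison. Of the 75 genes, 20 were called higher with AE knockdown in each of the 9 fits that left out 1 library, and 71 had a positive value in all 9. The replicate block left 26 calls with AE knockdown, where 5.2% of all genes were called higher. Deviations of same-numbered control and AE libraries from their group means had correlations of 0.04, -0.01 and 0.01. With 3 libraries per group such correlations cannot show whether the numbers mark a pairing or a shared batch. The control share of 5.67% was 6.14% without mitochondrially encoded genes and 5.82% with pseudogene symbols. No named gene with a call changed its sign in any setting. The count of calls with AE knockdown was lowest without 1 control, at an adjusted p below 0.01 and with the replicate block. Against LYL1 knockdown it was lowest at that threshold, in the fit of the 6 libraries compared and without LYL1 shRNA 542. The share of all genes called higher fell in these settings too, and the cause was not tested. The fit that weights each group and the fit without AE replicate 3 and LYL1 shRNA 542 were added after seeing the data, with 61 and 59 calls.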
